A study of Mus musculus with 12 samples.

Results

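The genes described here are 8 B cell transcripts, Cd79a, Cd79b, Ms4a1, Cd22, Ighm, Igkc, Pax5 and Cr2, read across RNA-seq libraries of sorted mouse CD4 T cells. They were chosen by gene identifier from a table of 21839 genes because earlier results of these data had shown them higher in TG than in WT libraries and higher in the libraries numbered 1. Those 2 differences are therefore given as descriptions without a test, and tests are kept to the CD25 gates, which the choice did not use. All 12 libraries came from C57BL/6 mice in which both copies of Atg5, a gene needed for autophagy, are flanked by loxP sites. In TG mice (Atg5 flox/flox CD11c Cre +/-) Cre recombinase is driven by the CD11c promoter, which is active mainly in dendritic cells, and their WT littermates (Atg5 flox/flox CD11c Cre -/-) carry no Cre. Atg5 RNA in the sorted T cells is no check of a deletion driven in CD11c-expressing cells. CD4+ CD62L+ cells from the spleen and from 3 sets of lymph nodes (brachial, cervical, inguinal) were sorted as CD25 High or CD25 Low, which gave 4 groups of 3 libraries: WT High, WT Low, TG High and TG Low. The labels give the libraries of each group the numbers 1 to 3 and do not say whether these are single animals, pools or repeat preparations, so the p-values measure the spread between these libraries, which may be technical. The labels give no ages.

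B cells recognise antigen through the B cell receptor, a membrane immunoglobulin of paired heavy and light chains that signals through the attached chains CD79a and CD79b. The heavy chain of a naive B cell carries the mu constant region, encoded by Ighm, and most mouse B cells use a kappa light chain, whose constant region is encoded by Igkc. CD22 dampens the receptor's signal, complement receptor 2 (Cr2, CD21) strengthens it, Ms4a1 encodes the surface protein CD20, and Pax5 is the transcription factor that holds cells in the B lineage. Mature CD4 T cells are not known for making most of these proteins.

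Total counts per library ran from 6767828 (TG High 2) to 23942479. Levels are given as CPM, each count as a share of its library after TMM scaling, which corrects for differences in library makeup. The sorted cells had the RNA of CD4 T cells: Cd3e, a chain of the T cell receptor complex, lay between 921 and 1145 CPM, and Cd4 between 513 and 715 CPM. Foxp3, which defines regulatory T cells, was present in both gates, at 1550 ± 105 CPM in WT High, 1090 ± 101 in WT Low, 1520 ± 114 in TG High and 1140 ± 48.7 in TG Low (mean ± SD, n = 3). The 8 B cell transcripts together took between 0.036% and 0.122% of a library's counts, and Ighm alone made up between 62.5% and 92.1% of their summed CPM.

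Promoters were also read as a description of sequence, and their part in the levels of the transcripts was not tested. RefSeq promoter sequences (GRCm38.p6, 250 bases before to 50 after the annotated start, printed 5′ to 3′ on the gene's strand) were read for Cr2, Pax5, Cd79a and Cd22; those of Cd79b, Ms4a1, Ighm and Igkc were not used here. A set of 4 short motifs bound by B lineage factors were searched on both strands. The 3 promoters with a match are shown, with matched bases in capitals, for Cd79a (chr7:24897247-24897546, plus strand), Cd22 (chr7:30878979-30879278, minus strand) and Cr2 (chr1:195176670-195176969, minus strand).
Cd79a: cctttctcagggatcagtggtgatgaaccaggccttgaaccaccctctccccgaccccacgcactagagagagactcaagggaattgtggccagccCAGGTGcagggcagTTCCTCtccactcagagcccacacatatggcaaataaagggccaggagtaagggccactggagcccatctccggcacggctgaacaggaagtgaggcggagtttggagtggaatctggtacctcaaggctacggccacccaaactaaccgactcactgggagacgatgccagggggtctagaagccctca
Cd22: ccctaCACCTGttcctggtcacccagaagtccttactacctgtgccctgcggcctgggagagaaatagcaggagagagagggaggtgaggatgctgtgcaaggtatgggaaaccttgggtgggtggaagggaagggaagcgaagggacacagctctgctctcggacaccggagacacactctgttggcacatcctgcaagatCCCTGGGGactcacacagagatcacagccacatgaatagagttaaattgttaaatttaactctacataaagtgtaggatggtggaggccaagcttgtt
Cr2: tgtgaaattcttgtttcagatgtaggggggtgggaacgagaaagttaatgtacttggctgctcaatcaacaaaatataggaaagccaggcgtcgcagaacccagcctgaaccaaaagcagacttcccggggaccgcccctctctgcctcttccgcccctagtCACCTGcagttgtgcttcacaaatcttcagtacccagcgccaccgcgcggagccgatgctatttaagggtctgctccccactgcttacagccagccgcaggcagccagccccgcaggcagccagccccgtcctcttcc
The E-box CAGGTG, the type of site bound by E proteins such as E2A, occurred in these 3 promoters and in 20.2% of 32851 RefSeq mouse promoters of the same length. It began 154 bases before the RefSeq start of Cd79a, 245 before that of Cd22 and 88 before that of Cr2. The RefSeq starts of Cd79a and Cd22 lie inside the gene spans given below, so they are not the outer ends of those spans. CCCNNGGG, the paired half-sites bound by Ebf1, occurred only in Cd22 among the 4, 48 bases before its start, and in 13.7% of all promoters. The purine box GAGGAA, of the kind bound by the factors PU.1 and Spi-B, occurred in Cd79a, 140 bases before its start, and in 28.3% of all promoters. The octamer ATGCAAAT was in none of the 4 and in 1.7% of all promoters, and the Pax5 promoter held no match to any of the 4 motifs. None of these motifs overlapped another in the 3 sequences, and a match is a description of letters only.

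Igkc (ENSMUSG00000076609, chr6:70726435-70726966, plus strand, a single constant-region segment) showed the spread between libraries most plainly. It stood at 85.7, 10.1 and 3.75 CPM in WT High replicates 1, 2 and 3 and at 124, 10.2 and 5.92 CPM in WT Low. In TG High it stood at 165, 18.1 and 3.80 CPM, and in TG Low at 160, 31.3 and 4.98 CPM. In each of the 4 groups replicate 1 was highest and replicate 3 lowest, and WT and TG overlapped in both gates. Iglc2, the constant region of a lambda light chain, was likewise highest in the libraries numbered 1, with 16.6 to 45.3 CPM in the libraries numbered 1, 0.674 to 5.96 in those numbered 2 and 0.563 to 1.70 in those numbered 3. Iglc1, Iglc3 and Ighd are not analysed here.

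Ighm (ENSMUSG00000076617, chr12:113418558-113422730, minus strand) was high everywhere. It was counted at 536, 481 and 326 CPM in WT High replicates 1 to 3, at 662, 548 and 397 in WT Low, at 718, 473 and 411 in TG High and at 797, 507 and 483 in TG Low. Replicate 1 was again the highest of each group, but the highest library held only 2.45 times the lowest, against 44.0 times for Igkc. The ratio of Ighm to Igkc accordingly ran from 4.36 to 6.26 in the libraries numbered 1 and from 67.1 to 108 in those numbered 3.

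The heavy-chain variable segments, which are joined to Ighm in an assembled heavy chain, did not keep pace with Ighm. All Ighv segments together reached 16.0 to 30.6 CPM in the libraries numbered 1 and 0.901 to 1.71 CPM in those numbered 3, so that Ighm exceeded them 24- to 34-fold in the first and 232- to 537-fold in the second. In the libraries numbered 2 the Ighv segments reached 1.53 to 6.66 CPM. From number 1 to number 3 they thus fell with Igkc, and light-chain segments did so as well. Igkv segments summed to 44.1 to 90.7 CPM in the libraries numbered 1, 4.93 to 13.1 in those numbered 2 and 1.83 to 3.57 in those numbered 3. Between 74 and 80 different Igkv segments had at least 1 count in each library numbered 1, against 16 to 25 in those numbered 3. Heavy-chain joining segments (Ighj) were intermediate, at 5.25 to 8.40 CPM in the libraries numbered 1 and 1.08 to 1.43 in those numbered 3.

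Cd79a (ENSMUSG00000003379, chr7:24897381-24902197, plus strand) and Cd79b (ENSMUSG00000040592, chr11:106311341-106314762, minus strand) encode the 2 signalling chains that pair in 1 receptor, yet their RNA did not keep 1 ratio. Cd79a was measured at 29.4, 6.2 and 4.62 CPM in WT High replicates 1 to 3, at 44.3, 8.62 and 5.87 in WT Low, at 52.8, 9.34 and 4.74 in TG High and at 52.2, 16.0 and 6.15 in TG Low. Cd79b was measured at 52.4, 21.2 and 22.6 CPM in WT High, at 57.0, 21.1 and 23.4 in WT Low, at 77.7, 28.5 and 25.1 in TG High and at 86.9, 29.7 and 26.3 in TG Low. For both, the 4 libraries numbered 1 lay above the other 8. The highest library held 11.4 times the lowest for Cd79a and 4.13 times for Cd79b, and Cd79b over Cd79a was 1.29 to 1.78 in the libraries numbered 1 and 3.98 to 5.31 in those numbered 3.

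Ms4a1 (ENSMUSG00000024673, chr19:11249675-11266241, minus strand) reached 31.0, 1.85 and 1.39 CPM in WT High replicates 1 to 3, 33.3, 2.51 and 2.79 in WT Low, 49.7, 6.12 and 1.13 in TG High and 51.8, 7.52 and 1.06 in TG Low. The libraries numbered 1 held at least 31.0 CPM and every other library at most 7.52. Among the libraries numbered 3, both TG values lay below both WT values, opposite to the order in the libraries numbered 1 and 2.

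Cd22 (ENSMUSG00000030577, chr7:30865402-30880342, minus strand), the inhibitory co-receptor, stood at 14.3, 2.28 and 1.18 CPM in WT High, 28.5, 4.91 and 1.61 in WT Low, 41.0, 5.82 and 1.74 in TG High and 40.4, 11.6 and 2.23 in TG Low. Cr2 (ENSMUSG00000026616, chr1:195136811-195176716, minus strand) stood at 16.8, 2.07 and 1.09 CPM in WT High, 20.3, 2.56 and 1.47 in WT Low, 39.1, 4.13 and 1.36 in TG High and 25.6, 5.65 and 0.477 in TG Low. Cr2 had the widest spread of the 8, with 82.1 times as much in the highest as in the lowest library. An antisense gene, Gm29439, overlaps 479 exonic bases of Cd22 and was not analysed here. The library chemistry does not keep strand, so reads of the pair cannot be told apart.

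Pax5 (ENSMUSG00000014030, chr4:44524757-44710487, minus strand) was the faintest, at 3.38 to 5.68 CPM in the libraries numbered 1, 0.295 to 1.11 in those numbered 2 and 0.0978 to 0.212 in those numbered 3. Its value rested on fewer than 10 counts in 6 of the 12 libraries, down to 2 counts, and 2 genes on the opposite strand overlap its exons. All 8 transcripts passed the filter on low counts. Cr2 had 9 counts in 1 library, and the other 6 had at least 20 counts in every library.

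**Figure D1:**
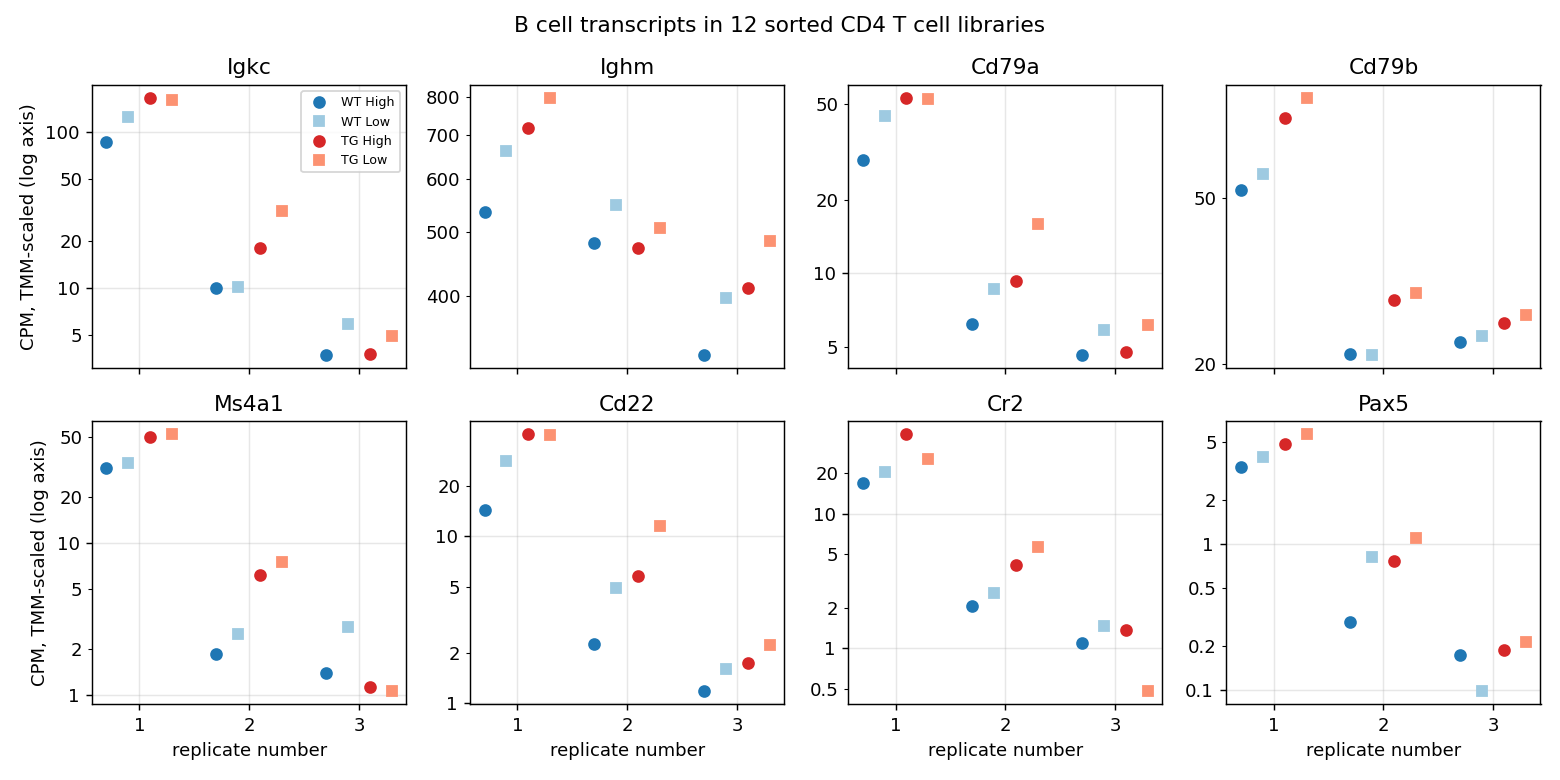
TMM-scaled CPM (log axis, different in each panel) of the 8 transcripts by replicate number, 1 point per library, with colour for genotype and shape for CD25 gate. For every transcript the 4 libraries numbered 1 lie above the other 8, except that Ighm in WT High 1 (536 CPM) lies below WT Low 2 (548 CPM).

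Set per kilobase of exon, which allows levels to be compared between genes, the median over the 12 libraries was 263 CPM per kilobase for Ighm, 26.5 for Igkc, 19.1 for Cd79b, 6.16 for Cd79a, 1.06 for Cd22, 0.720 for Ms4a1, 0.413 for Cr2 and 0.0894 for Pax5. The order depended on the library. In the libraries numbered 1, Ighm (284 to 423 CPM per kilobase) and Igkc (161 to 310) overlapped, as did Cd22 (2.84 to 8.13) and Ms4a1 (5.01 to 8.38). In the libraries numbered 3, Ighm (173 to 256 CPM per kilobase) stood far above Igkc (7.05 to 11.1), and Cd79b (15.8 to 18.4) also stood above Igkc.

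Igkc, whose 44.0-fold spread and level gave counts of at least 81 in every library, served as a yardstick for the other 7. Ms4a1 held the steadiest ratio to it, from 0.184 to 0.471 over all 12 libraries, a 2.56-fold range. The range was 2.90-fold for Cd22, 3.74-fold for Cr2 and 4.88-fold for the sparsely counted Pax5, and for these 4 the ratios in the libraries numbered 1 overlapped those in the libraries numbered 2 or 3. Cd79a spanned 3.91-fold without such an overlap, from 0.320 to 0.358 in the libraries numbered 1 and from 0.992 to 1.25 in those numbered 3. Cd22 overlapped only with the libraries numbered 2, at 0.167 to 0.253 in those numbered 1 and 0.273 to 0.457 in those numbered 3. Cd79b spanned 14.4-fold and Ighm 24.8-fold. A straight line of each transcript's CPM on that of Igkc over the 12 libraries met an Igkc level of 0 at 427 CPM for Ighm, 80.8% of its mean, at 20.6 CPM for Cd79b, 52.5% of its mean, and at 4.34 CPM for Cd79a, 21.7% of its mean. For Ms4a1, Cr2, Cd22 and Pax5 the intercept lay between -1.04% and 7.27% of the mean. By this line those 4 followed the light chain, though the ratio of Cd22 to it was higher in the libraries numbered 3 than in those numbered 1. Ighm, Cd79b and, less so, Cd79a kept a level that did not follow it. In bulk libraries fewer cells of a type and less RNA per cell cannot be told apart.

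**Figure D2:**
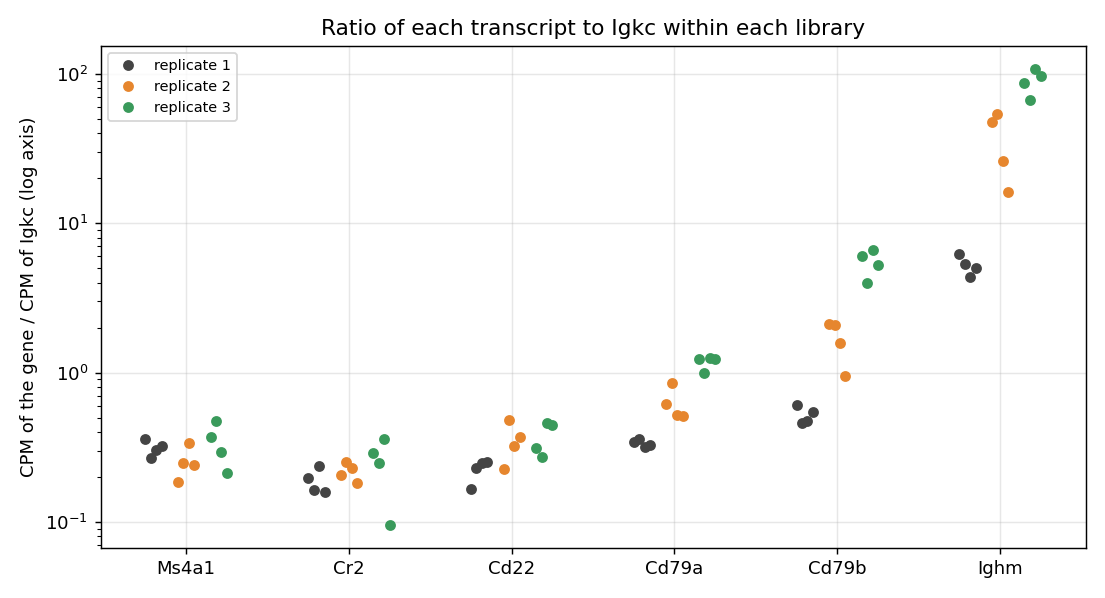
CPM of each transcript divided by the CPM of Igkc in the same library (log axis), 4 libraries per replicate number, Pax5 left out for its low counts. Ms4a1 stays between 0.184 and 0.471 in all 12 libraries, while Ighm runs from 4.36 to 6.26 in the libraries numbered 1 and from 67.1 to 108 in those numbered 3.

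In a fit with group and number as terms, the libraries numbered 1 exceeded the mean of those numbered 2 and 3 by a log2 value of 3.99 ± 0.32 for Ms4a1 (15.8-fold), 3.92 ± 0.22 for Igkc, 3.65 ± 0.25 for Pax5, 3.62 ± 0.22 for Cr2, 3.28 ± 0.15 for Cd22 and 2.61 ± 0.12 for Cd79a (estimate ± SE, 12 libraries). Cd79b (1.45 ± 0.08) and Ighm (0.58 ± 0.07) stood apart with smaller values. The median over the 8 was 3.45, against -0.01 over the 11766 genes tested, and this difference was among those the transcripts were chosen on. The median was also 3.46 for 10 tested myeloid and dendritic genes (10 positive) and 3.05 for 12 CD8 and natural killer genes (11 positive). It was 2.93 for 10 class II genes (9 positive) and 0.08 for 15 T cell identity genes (12 positive). Of the first 2 lists, C1qa, Csf1r, Fcer1g, Klrk1, Ncr1, Klrb1c and Klrd1 failed the filter on low counts without the libraries numbered 1. The filter thus fixed the sign of these genes in advance, and the first 2 medians and their positive counts are no support.

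The TG and WT groups were described by matching numbers within a gate. Each gate holds 3 number-matched library pairs. In CD25 High, 8, 7 and 7 of the 8 transcripts were higher in TG for replicates 1, 2 and 3. In CD25 Low the counts were 8, 7 and 5. Over all genes, 49.7% to 53.0% were higher in TG in a pair. The 8 were chosen for this direction and move together, so they are not separate replicates. The median log2 ratio of TG over WT in CD25 High was 0.77 for replicate 1, 0.92 for replicate 2 and 0.13 for replicate 3. In CD25 Low it was 0.43, 1.01 and 0.12 in the same order. Over all genes the 6 medians lay between 0.00 and 0.01, with 0.5 CPM added to each value, which was not done for the 8. The excess was thus small in the replicate 3 pairs, whose libraries held the lowest summed CPM of the 8 within each group. That sum was 90.3% to 92.1% Ighm. In the replicate 3 pair of CD25 Low, 3 of the 8 transcripts were lower in TG, with a log2 ratio down to -1.62 for Cr2. With 0.5 CPM added, that Cr2 value was -1.01. For every transcript and both gates the SD within the TG group was larger than the difference of the group means. Cd22 in CD25 High, for example, averaged 16.2 ± 21.6 CPM in TG and 5.92 ± 7.28 in WT (mean ± SD, n = 3). This SD includes the difference between replicate numbers, which pairing by number takes out. Fitted over all libraries, the median log2 difference of the 8 was 0.76 in CD25 High and 0.49 in CD25 Low, or 0.70 and 0.48 with the number as a block. With the block the 8 ran from 0.24 to 1.30 in CD25 High (SE 0.09 to 0.48). In CD25 Low they ran from 0.15 to 0.77 (SE 0.09 to 0.47). These remain descriptions, since the 8 were chosen on this difference. Without the block, the median depended on single libraries numbered 1, since leaving 1 out left its partner unmatched. It ran from -1.16 (without TG High 1) to 3.11 (without WT High 1) in CD25 High and from -1.05 (without TG Low 1) to 2.37 (without WT Low 1) in CD25 Low.

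**Figure D3:**
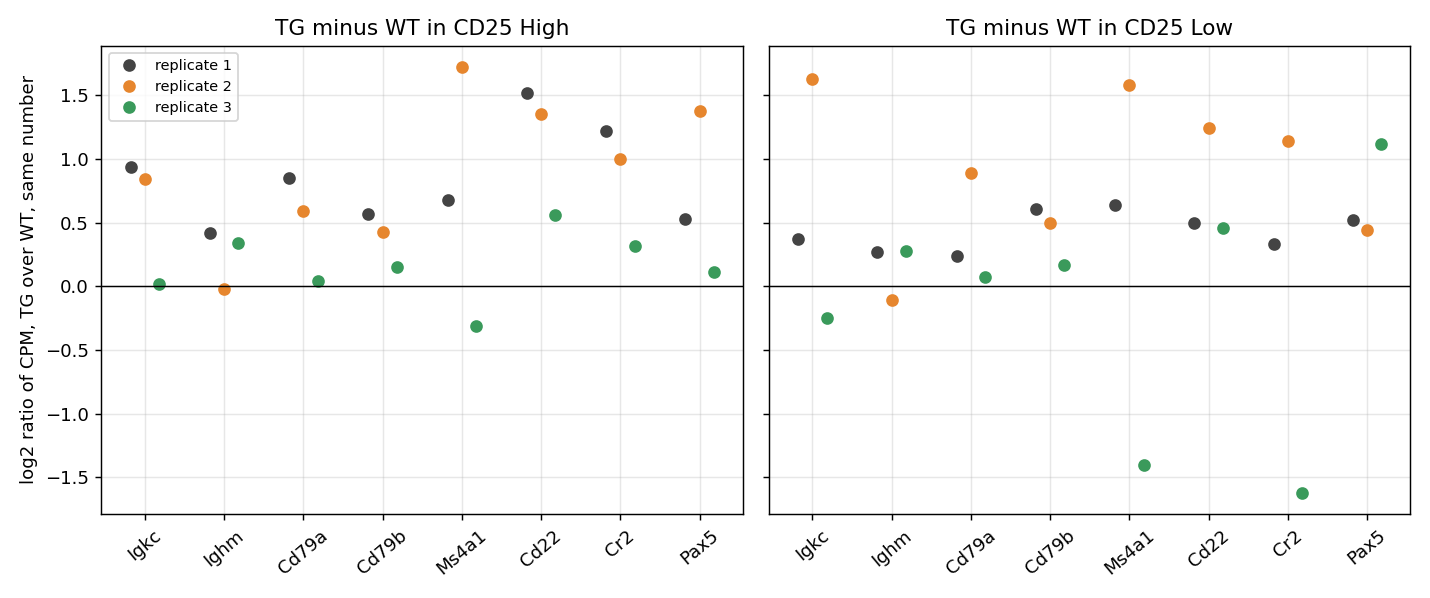
Log2 ratio of CPM with no value added, TG over WT, for each transcript and number-matched pair, in CD25 High (left) and CD25 Low (right). All 8 points of replicate 1 lie above 0 in both gates, while replicate 3 runs from -0.31 to 0.56 in CD25 High and from -1.62 to 1.12 in CD25 Low.

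The CD25 gates were compared by a test, since the choice of the transcripts did not rest on them. CD25, encoded by Il2ra, is a chain of the interleukin-2 receptor. Of the 8 transcripts, Cd22 alone was lower in CD25 High past the threshold in the edgeR fits over all 12 libraries with the filter on low counts, in the comparison that matched libraries by number and averaged the genotypes. It fell by 0.66 on the log2 scale (SE 0.15, 0.633-fold, 95% interval -0.96 to -0.36, edgeR quasi-likelihood test, Benjamini-Hochberg adjusted p = 0.0178). Its level was lower in CD25 High in 3 of 3 WT pairs and in 2 of 3 TG pairs, the exception being TG replicate 1 (41.0 against 40.4 CPM). In WT alone the paired log2 value was -0.92 (SE 0.22, adjusted p = 0.0527, called without the filter or without WT High 3, TG High 1, TG High 2 or TG Low 2), and in TG alone it was -0.40 (SE 0.21, adjusted p = 0.48). The paired difference between these, 0.53 (SE 0.31), was not called (adjusted p = 1.00). The call of Cd22 was lost without WT High 1 (adjusted p = 0.0745), without WT High 2 (0.0625), without WT Low 1 (0.0913) and without all 4 libraries numbered 1 (log2 -0.78, adjusted p = 0.208).

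Without the block none of the 8 was called in any of the 4 gate comparisons, at an unadjusted p under 0.05 or after adjustment, and DESeq2 without the block called none either. Over all genes the edgeR fit without the block called 0.051% in WT, 0.0085% in TG, 0.518% for the mean of the genotypes and 0% for the difference between them. With the block the count of the 8 that were called was 0 in WT, 0 in TG, 1 for the mean and 0 for the difference, against 1.63%, 1.68%, 5.88% and 0% of all 11766 genes. At an unadjusted p under 0.05 the blocked edgeR fit held 3 of the 8 in WT, 0 in TG, 3 for the mean and 0 for the difference, against 1085, 1433, 2142 and 118 of the 11766 genes. DESeq2 with the block called 1 in WT (Cd22), 0 in TG, 3 for the mean (Cd22, Cd79a and Ighm) and 0 for the difference, against 281, 362, 827 and 0 of all genes.

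The other 7 transcripts were not called in the blocked mean comparison. Cd79a had a log2 value of -0.41 (SE 0.12, 0.750-fold, adjusted p = 0.0643) and Ighm one of -0.21 (SE 0.07, 0.864-fold, adjusted p = 0.0831). Cd79a was called without WT High 3, TG High 1 or TG Low 3, and Ighm without WT High 2 or TG Low 2. The 95% interval was -0.84 to 0.04 for Igkc, -0.90 to 0.14 for Pax5 and -0.98 to 0.34 for Ms4a1. For Cd79b the interval was -0.23 to 0.07, and for Cr2 it was -0.50 to 0.51, around an estimate of 0.00. The median over all 8 was -0.35, against 0.00 over all genes. In the 3 WT library pairs, 8, 7 and 7 of the 8 were lower in CD25 High for replicates 1, 2 and 3. In the 3 TG pairs 4, 8 and 6 were lower. Over all genes, 48.3% to 50.9% were higher in CD25 High in a pair. The 8 move together and are not separate replicates. The TG replicate 1 pair, split 4 and 4, holds the 2 libraries with the largest summed CPM of the 8.

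**Figure D4:**
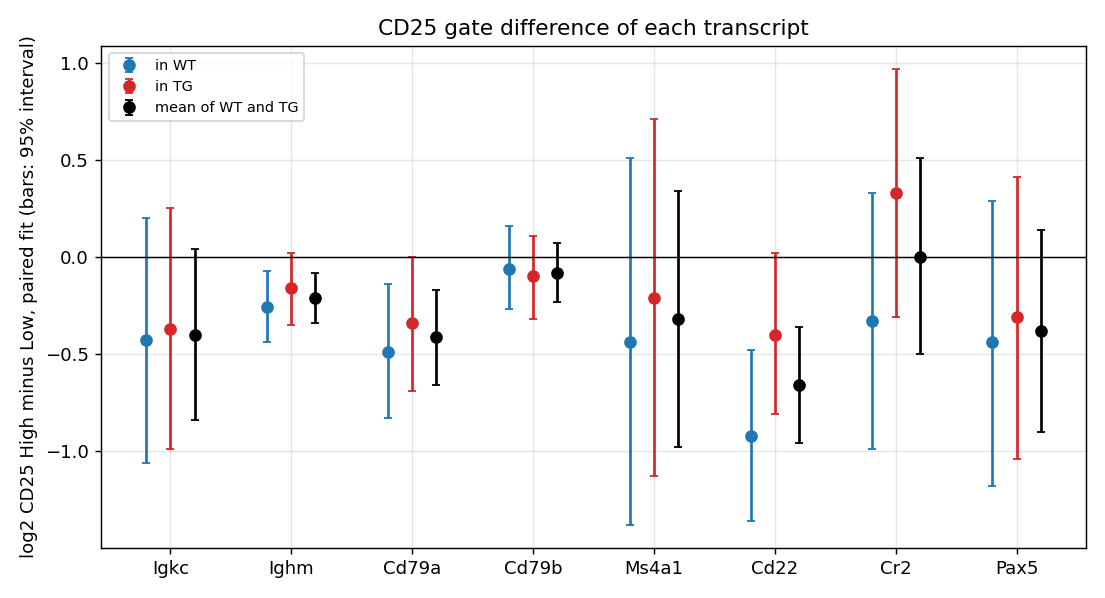
Log2 difference of CD25 High minus Low for each transcript from the paired edgeR fit, in WT, in TG and for their mean, with bars for the 95% interval. The mean for Cd22 is -0.66 with an interval of -0.96 to -0.36, and the interval for Cr2 reaches from -0.50 to 0.51.

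Other genes of the B lineage were read from lists of genes by role, in the same blocked mean comparison of the gates, in which 2142 of all 11766 genes had an unadjusted p under 0.05 in edgeR. Of 6 tested B cell transcription factors 1 fell in CD25 High: Pou2af1, the octamer-factor coactivator, by 0.89 on the log2 scale (SE 0.18, edgeR adjusted p = 0.00644). It was also called with each library left out, at an adjusted p of up to 0.0469, and not without the 4 libraries numbered 1 (0.401). Spib, which pairs with Irf factors in B cells, had a value of -0.58 (SE 0.26, adjusted p = 0.255). Of 14 genes of B cell receptor signalling 1 fell: Lyn, the kinase that first phosphorylates the receptor, by 0.74 (SE 0.20, adjusted p = 0.0337). Its call was lost in 8 of the 12 fits that left out 1 library, with an adjusted p of up to 0.162 (without WT High 1), and kept without WT High 3, WT Low 2, TG High 2 or TG Low 3. Syk, the next kinase in that chain, had a value of 0.26 (SE 0.15, adjusted p = 0.391). None of 11 surface receptors was called by edgeR or DESeq2, with 1 at an unadjusted p under 0.05, at -0.24 for Cxcr5, the follicle-homing receptor that some T cells also carry (adjusted p = 0.217).

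Genes of particular B cell stages were read in the same way. None of 6 tested plasma cell genes, 2 germinal centre genes and 3 genes of developing B cells was called between the gates by edgeR or DESeq2, and at an unadjusted p under 0.05 there were 2, 0 and 0. Jchain, which joins secreted IgM and IgA chains, stood at 5.80 to 17.6 CPM in the libraries numbered 1 and at most 1.48 in the others. Of the constant regions of switched antibodies, Ighe had no count in any library, which allows up to 0.126 to 0.459 CPM depending on the library, and Ighg1 reached at most 0.256 CPM. Ighg3, the switched region that passed the filter, stood at 0.821 to 3.34 CPM in the libraries numbered 1 and at most 0.202 in the others. It had at most 4 counts in the others and passed only through the libraries numbered 1. The filter thus fixed this order in advance, and it is no support. Among the 30 tested immunoglobulin variable segments, of 208 in the table, none was called by edgeR or DESeq2. An unadjusted edgeR p under 0.05 was held by 8 of the 30, against 2142 of all 11766 genes.

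Some class II antigen presentation genes, which B cells share with dendritic cells and macrophages, were among the genes closest to the 8 in pattern. These were H2-Eb1, Cd74, H2-Ab1 and H2-Aa, and H2-DMb1 once the mean of each replicate number was subtracted. H2-Ob did not follow the pattern, at 114.8 to 120.5 CPM in the libraries numbered 1 and 138.5 to 145.4 in those numbered 3. H2-DMa did not follow it either, at 46.25 to 49.35 and 38.55 to 49.47 CPM. The summed level of the class II list was 621 to 1180 CPM in the libraries numbered 1 and 230 to 253 in those numbered 3. In the blocked mean comparison 2 of 10 fell in CD25 High: Ciita, the class II master regulator, by 0.82 (SE 0.17, edgeR adjusted p = 0.00714) and H2-Aa, a class II alpha chain, by 0.76 (SE 0.17, adjusted p = 0.0272). Ciita was also called with each library left out, and H2-Aa lost its call in 7 of those 12 fits, with an adjusted p of up to 0.079 (without TG High 2), all but those without WT High 2, WT High 3 or a TG Low library. Neither was called without the 4 libraries numbered 1, at 0.186 and 0.137.

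Likeness to the mean log2 CPM of the 8 was ranked over 11398 other tested genes with a name that is not that of a predicted gene. Over the 12 libraries the genes named as closest were H2-Eb1 (Pearson r = 0.996), Cd74 (0.994), H2-Ab1 (0.991), H2-Aa (0.991), Chst3 (0.990), Blnk (0.990), Spib (0.985), Ctsh (0.983) and Ly86 (0.981). These values rest on the contrast of the libraries numbered 1 with the rest, so the ranking was repeated after the mean of each number was subtracted. Then those named as closest over the 12 deviations were H2-Ab1 (0.959), H2-Eb1 (0.954), H2-Aa (0.942), Cd74 (0.942), Plekhh3 (0.925), Polr2h (0.921), Lyn (0.914), Iglc2 (0.910) and H2-DMb1 (0.905). Among the 8 themselves, the 15 pairs without Ighm and Cd79b correlated at 0.42 to 0.97 within numbers, and all 28 pairs at -0.03 to 0.97. All values in a library share its depth and scaling, and these correlations are descriptions.

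Markers of other cells moved with some of these results. Of 17 myeloid and dendritic genes 10 were tested and 4 fell in CD25 High in the blocked mean comparison. That comparison called 5.88% of all 11766 genes. The list's summed level ran from 86.7 to 109 CPM in WT High, 84.8 to 182 in WT Low, 84.9 to 148 in TG High and 84.8 to 274 in TG Low. Csf1r, the macrophage growth factor receptor, stood at 15.6 CPM in WT Low 1 and 21.2 in TG Low 1 but at 0.107 in WT High 1 and 1.59 in TG High 1, whereas Igkc was at 85.7 and 165 CPM in those 2 CD25 High libraries. The calls of Csf1r and C1qa, a complement chain of macrophages, rested on the libraries numbered 1: without TG Low 1 their edgeR adjusted p was 0.959 and 0.964, and DESeq2 with the block called neither. The other 2, Tyrobp (log2 -2.06, edgeR adjusted p = 0.0126) and Fcer1g (-1.82, 0.0142), were also called by DESeq2 with the block (0.000511 and 0.0105). Without TG Low 1 edgeR called neither of these (0.0853 and 0.247). Other genes of that list were raised in TG High 1 as well: Lyz2, the lysozyme of macrophages and neutrophils, stood there at 10.7 CPM against 0.31 and 0.09 in TG High 2 and 3, and Itgam, an integrin chain of myeloid cells, at 21.4 against 6.58 and 9.14. The part of myeloid cells in the levels of the 8 was not tested. Of 12 CD8 and natural killer genes 5 fell in CD25 High, among them Ncr1, a natural killer receptor, which reached 8.42 CPM in WT Low 1 and had no count in any library numbered 3. Klrk1, Ncr1, Klrb1c and Klrd1, all among these 5, failed the filter on low counts without the libraries numbered 1. Their calls therefore rest on those libraries. The CD8 and natural killer list summed to 71.3 to 118 CPM in WT High, 58.8 to 135 in WT Low, 71.7 to 127 in TG High and 67.4 to 163 in TG Low. Of 15 T cell identity genes 4 fell in CD25 High, Thy1 by 0.59 (SE 0.08, adjusted p = 0.000477) and Trac by 0.36 (SE 0.06, adjusted p = 0.00153) the most. The part of these cell types in the gate difference of Cd22 was not tested.

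**Figure D5:**
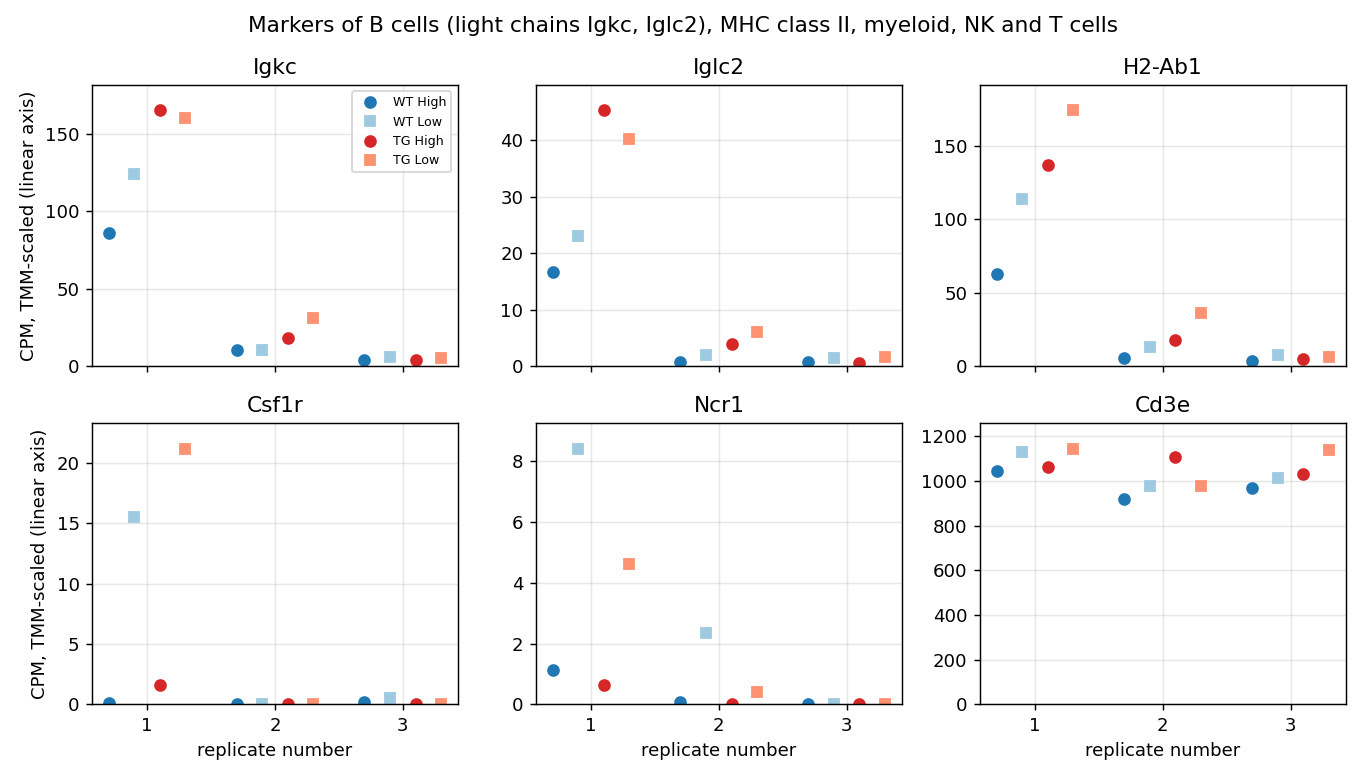
TMM-scaled CPM (linear axis from 0) of light chain genes Igkc and Iglc2, class II gene H2-Ab1, myeloid gene Csf1r, natural killer gene Ncr1 and T cell gene Cd3e by replicate number, 1 point per library. Igkc is at 85.7 CPM or more in all 4 libraries numbered 1, Csf1r is high only in WT Low 1 (15.6) and TG Low 1 (21.2), and Cd3e lies between 921 and 1145 in all 12.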

How the data were processed

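RNA from 12 sorted libraries was amplified with the SMARTer Ultra Low kit, which does not keep strand, per the labels' protocols. The authors deposited raw counts for each Ensembl gene, with no normalization. The submitters' processing notes name GRCm38 and featureCounts 1.4.6, STAR 2.4 and CASAVA 1.8.2. Of 21839 genes, 21628 were matched to symbols in GENCODE vM21, which also gave positions and exon lengths. Groups came from sample titles. The members, lists and tests were chosen with earlier results of these data known.

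Counts were analysed with edgeR 4.0.16 in R 4.3.3: TMM, filterByExpr (minimum count 10, 11766 genes), robust quasi-likelihood fits over all 12 libraries with 4 groups, and Benjamini-Hochberg adjustment over all tested genes at 0.05. The procedure was tested on simulated data. Replicate numbers were checked as pairs by correlating libraries' deviations from their group means: same-numbered libraries of different groups correlated at 0.34 to 0.83 (18 pairs), others at -0.688 to 0.197 (36 pairs). The numbers therefore pair the libraries, from the data and not the labels, and the fit with the number as a block is given where it changes a call. No 2 libraries of a group agreed within sampling noise (chi-square per degree of freedom 21.03 or more). The 95% intervals span 1.96 SE on each side. This normal multiple makes them narrower than the quasi-likelihood test implies, so they are approximate. The limit for a count of 0 is 3 counts, covering counting error only.

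Named genes are the 8 members, up to 4 genes of each list with the smallest p in the blocked mean gate comparison (a selection of these is printed), Iglc2 and Jchain, and the 10 genes closest to the members' mean log2 CPM (prior count 2). Csf1r, C1qa, Ighe, Ighg1, Cd3e, Cd4 and Foxp3 are given as markers. Some genes that this rule names are not reported here. Alternatives were median-ratio scaling, no scaling, no filter, DESeq2 1.42.0, and leaving out each library or the 4 numbered 1.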

Additional observations from a re-analysis of the deposited data

How the results depend on the processing

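The count of the 8 transcripts called between the CD25 gates depended on the pairing. For the mean of the genotypes it was 0 without the replicate block and 1 with it, 3 with DESeq2 and the block, 0 without the libraries numbered 1, and 0 to 2 with each library left out. In WT the paired count was 0, or 1 with DESeq2 or without a filter, and 0 to 1 with a library left out. The cause was not tested, beyond the fewer libraries in some fits.

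Over all genes, the unpaired WT count of 6 became 192 with the replicate block, 44 with DESeq2, 0 without the libraries numbered 1 and 0 to 7 with a library left out. The unpaired TG count of 1 became 198 with the block, 58 with DESeq2, 2 without scaling, 3 without a filter, 0 without the libraries numbered 1 and 0 to 3 with a library left out. The unpaired mean count of 61 became 692 with the block, 255 with DESeq2, 3 without the libraries numbered 1 and 15 to 75 with a library left out. The paired counts fell without the libraries numbered 1 to 49 in WT, 39 in TG and 177 for the mean, and ran with a library left out from 87 to 247, 74 to 235 and 415 to 775. DESeq2 with the block called 362 in TG.

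The paired value of Cr2 for the mean, near 0, changed sign with DESeq2 (-0.00687), without the libraries numbered 1 (-0.155) and in 6 fits with a library left out, which ran from -0.149 to 0.199. The unpaired median of TG minus WT ran with a library left out from -1.16 to 3.11 in CD25 High and from -1.05 to 2.37 in CD25 Low. The median excess of the libraries numbered 1 stayed between 3.30 and 3.55. It could not be fitted without those libraries or without the number term. Pax5 had under 10 counts in 6 libraries, which limits its precision.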
